A study of Mus musculus with 40 samples.

Results

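The comparison described here sets mouse collecting duct cells labelled ATF1-KO against unmodified control cells of the same line. It covers 10 RNA sequencing libraries, 5 labelled ATF1-KO and control clones 1 to 5, of the 22 libraries with a column in the deposited table and the 40 samples in the labels. The libraries were chosen by their labels: these 10 carry the library numbers 1 to 10, and no expression value was used. All 10 came from mpkCCD cells, an immortalized mouse kidney collecting duct line, grown on permeable supports so that they polarize. All were given 0.1 nM dDAVP, a synthetic agonist of the vasopressin V2 receptor, for 72 h in a medium with dexamethasone, selenite and transferrin, so no library came from cells without the agonist. The control cells are clones with no edit. The labels give ATF1-KO as the only genotype of the other 5 libraries, and say neither how the knockout was made nor whether the 5 are separate clones. P-values therefore measure only the spread between these samples.

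Vasopressin binds the V2 receptor of collecting duct principal cells, which raises cAMP and activates protein kinase A. ATF1, CREB1 and CREM form the CREB family of basic leucine zipper transcription factors. They bind cAMP response elements in promoters as homodimers or heterodimers, and are activated when protein kinase A phosphorylates them and coactivators are recruited. Principal cells respond to the hormone by moving the water channel aquaporin-2 to the apical membrane and by raising transcription of its gene, Aqp2.

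Values are TPM, transcript abundances corrected for transcript length and scaled to 1 total in every library. A gene was tested when its mean over the 10 libraries reached 1 TPM, which 13318 did. Differences are means of log2(TPM + 1) in ATF1-KO minus those in the control clones, a scale that understates the change of genes near 1 TPM. Tests were made with limma, and its p-values were adjusted by the Benjamini-Hochberg method across all 13318 genes.

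The cAMP response element is the palindrome TGACGTCA, and its core is TGACG, or CGTCA on the other strand. The 250 bases before the annotated start are printed for Aqp2, for the targeted gene Atf1 and its paralogue Creb1, and for Nipal4 and Man1a, a higher and a lower gene described below whose sequence holds a core. They are RefSeq promoters on GRCm38.p6, read 5′ to 3′ on the strand of the gene, with cores in capitals.
Aqp2: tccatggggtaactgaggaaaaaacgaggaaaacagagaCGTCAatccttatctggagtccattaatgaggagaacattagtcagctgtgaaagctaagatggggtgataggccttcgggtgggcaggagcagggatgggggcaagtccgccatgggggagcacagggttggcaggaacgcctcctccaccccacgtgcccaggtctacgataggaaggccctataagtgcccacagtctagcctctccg
Atf1: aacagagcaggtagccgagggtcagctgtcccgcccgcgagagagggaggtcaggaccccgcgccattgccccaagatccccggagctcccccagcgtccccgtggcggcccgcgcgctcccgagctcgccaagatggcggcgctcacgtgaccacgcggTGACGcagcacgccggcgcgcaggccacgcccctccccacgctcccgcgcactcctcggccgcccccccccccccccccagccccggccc
Creb1: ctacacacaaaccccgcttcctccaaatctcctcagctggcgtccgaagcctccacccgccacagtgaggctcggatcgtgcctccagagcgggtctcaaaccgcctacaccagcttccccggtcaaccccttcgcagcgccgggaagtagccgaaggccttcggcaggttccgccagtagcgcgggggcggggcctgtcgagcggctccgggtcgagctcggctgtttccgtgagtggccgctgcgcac
Nipal4: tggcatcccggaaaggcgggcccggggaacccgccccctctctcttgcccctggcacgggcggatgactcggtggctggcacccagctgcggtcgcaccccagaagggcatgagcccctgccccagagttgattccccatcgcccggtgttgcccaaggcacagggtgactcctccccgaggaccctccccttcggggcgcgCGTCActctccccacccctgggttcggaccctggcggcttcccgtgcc
Man1a: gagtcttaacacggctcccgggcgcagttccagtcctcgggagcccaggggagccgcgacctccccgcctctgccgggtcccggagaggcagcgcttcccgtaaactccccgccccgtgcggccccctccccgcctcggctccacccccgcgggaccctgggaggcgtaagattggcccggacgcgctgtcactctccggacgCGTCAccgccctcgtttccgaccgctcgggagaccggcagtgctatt
The Aqp2 sequence is chr15:99578806-99579055 on the plus strand, and its core begins 211 bases before the start. The Atf1 sequence is chr15:100227609-100227858 on the plus strand, with a core 90 bases before the start. The Creb1 sequence, chr1:64532554-64532803 on the plus strand, holds no core. The Nipal4 sequence is chr11:46166360-46166609 and the Man1a sequence chr10:54075738-54075987, both on the minus strand, with cores 48 and 47 bases before the start. None of these 5 windows holds the full palindrome. A match describes letters in a window and does not show binding.

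Control clone 3 stood apart from the other 9 libraries. Genes listed above 0 numbered 17296 in that clone and 19170 to 20703 in the others. Its Pearson correlations with the other libraries, over the log2 values of the genes tested, were 0.944 to 0.954, whereas all pairs without it were at 0.953 or higher. On the second principal component control clone 1 was the most extreme library. The standard deviation between libraries was larger in the control clones than in ATF1-KO for 66.4% of genes, and for 57.1% without clone 3. Ribosomal protein genes took 2.58% to 3.39% of the TPM and mitochondrial transcripts 0.892% to 1.14%. The sequencing depth behind these values is unknown, because TPM does not keep it.

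Atf1 transcript was lower in the libraries labelled ATF1-KO but still present in all 5. Atf1 (ENSMUSG00000023027, chromosome 15) was at 41.92, 37.82, 48.95, 39.70 and 42.65 TPM in control clones 1 to 5. ATF1-KO libraries 1 to 5 had 19.05, 25.01, 17.51, 33.53 and 37.79 TPM. The groups did not overlap in the deposited TPM, but ATF1-KO 5 lay just under the lowest control, clone 2, and ATF1-KO 3 and 1 were the lowest. The mean went from 42.2 TPM ± 4.22 (SD, n = 5) to 26.6 TPM ± 8.88 (SD, n = 5), 63.0% of the control mean. The log2 difference was -0.70 (SE 0.19, 95% interval -1.13 to -0.28). An exact two-sided permutation test gave p = 0.00794, the smallest that the 252 ways to divide the libraries allow, and 0.0159 after adjustment over the 4 genes so tested. In limma the adjusted p was 0.555. With median-ratio scaling or quantile normalization the exact permutation p was 0.0159 (0.0317 after adjustment over 4 genes). With each chromosome centred per library it was 0.0238. These lie above the smallest possible value, so the groups overlapped in those settings. Control clones 9 to 11, at 39.78 to 40.52 TPM, lay above every ATF1-KO library. Control clones 6 to 8, at 23.32 to 26.22 TPM, lay within the ATF1-KO range. With any 1 of control clones 1, 3, 4 or 5 left out, the adjusted permutation p was 0.0635 to 0.0794, with differences of -0.65 to -0.72. The median of chromosome 15 was 0.18 in control clone 1, and with chromosomes centred the Atf1 difference was -0.65 (adjusted permutation p 0.0476). Whether the remaining transcripts are edited, or yield protein, cannot be read from TPM summed over a gene, so the genotype rests on the label.

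Neighbouring genes gave no similar separation. Of the 6 nearest tested genes on each side of Atf1, none separated the groups, and their log2 differences were -0.63 to 0.07. The lowest belonged to Gm49494, with control clones at 9.74 TPM ± 2.76 (SD, n = 5) and ATF1-KO at 5.82 TPM ± 1.14 (SD, n = 5) (limma adjusted p 0.555). The other 11 lay between -0.33 and 0.07.

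Creb1 was higher in ATF1-KO. Creb1 (ENSMUSG00000025958, chromosome 1) was at 29.32, 30.12, 34.31, 31.17 and 27.99 TPM in control clones 1 to 5. Values of 40.16, 39.79, 38.71, 39.62 and 36.67 TPM were found in ATF1-KO libraries 1 to 5. Every ATF1-KO library exceeded every control, and the ATF1-KO values were close together. The log2 difference was 0.34 (SE 0.07, 95% interval 0.19 to 0.49), with an exact two-sided permutation p of 0.00794 and 0.0159 after adjustment over 4 genes. The limma adjusted p was 0.514. Control clones 9 to 11, which carry later library numbers, had Creb1 at 35.92 to 39.03 TPM and overlapped the ATF1-KO range, whereas control clones 6 to 8 had 4.98 to 6.69 TPM. With all 11 control clones of the table the difference was 0.88 (adjusted permutation p 0.0614), beside a median of 0.36 over all genes in that setting.

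Crem, whose gene also encodes the inducible repressor ICER, was not called. Crem (ENSMUSG00000063889, chromosome 18) was at 13.61, 24.63, 13.95, 16.64 and 19.62 TPM in the control clones. In ATF1-KO libraries 1 to 5 it was at 18.76, 22.94, 21.62, 27.54 and 26.89 TPM. The groups overlapped through control clones 2 and 5. The log2 difference was 0.41 (95% interval 0.05 to 0.77), with an exact permutation p of 0.0635 and 0.0794 after adjustment over 4 genes. Without control clone 2 it was 0.53, with an adjusted permutation p of 0.0317.

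Aqp2 was abundant in every library and its mean was higher in ATF1-KO, without passing the test. Aqp2 (ENSMUSG00000023013, chromosome 15) was at 1006, 1285, 1041, 798 and 1537 TPM in control clones 1 to 5. ATF1-KO libraries 1 to 5 had 1773, 1199, 2351, 1084 and 2123 TPM. ATF1-KO 1, 3 and 5 lay above every one of these 5 control clones, while ATF1-KO 2 and 4 lay within their range. Control clones averaged 1133 TPM ± 284 (SD, n = 5) and ATF1-KO libraries 1706 TPM ± 556 (SD, n = 5), 151% of the control mean. The log2 difference was 0.56 (SE 0.24, 95% interval 0.04 to 1.08), with an exact permutation p of 0.0794, unchanged by adjustment over 4 genes, and a limma adjusted p of 0.638. Over the alternatives tried, the difference stayed between 0.43 and 0.71. That range includes 0.67 against all 11 control clones, where the median of all genes was 0.36. Control clones 9 to 11 had 641 to 2279 TPM of Aqp2, a range that held every ATF1-KO value except that of ATF1-KO 3. Control clones 6 to 8 had 379 to 1029 TPM, below every ATF1-KO library.

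**Figure D1:**
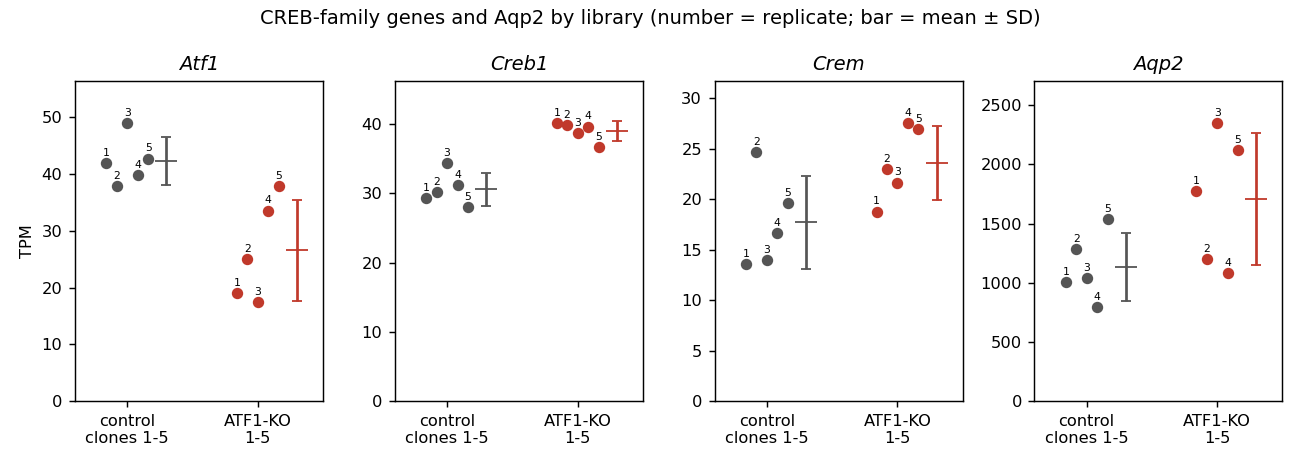
TPM of Atf1, Creb1, Crem and Aqp2 in each library; points are libraries numbered by replicate, and the bar is the mean ± SD (n = 5 in each group). The groups do not overlap for Atf1 and Creb1, with Atf1 of ATF1-KO 5 at 37.79 TPM beside 37.82 TPM in control clone 2, and they overlap for Crem and Aqp2.

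Most other basic leucine zipper factors differed little in their means. Of 17 tested factors, including the 3 above, 10 had a higher mean in ATF1-KO and 7 a lower one, with a median log2 difference of 0.03 beside -0.0035 over all genes. Without control clones 1 and 3 there were 8 higher and 9 lower, with a median of -0.0092. Atf1 and Creb1 were the only 2 whose groups did not overlap, beside 1.30% of all genes tested. Creb5, at 0.29 to 2.18 TPM in the control clones and 1.70 to 2.66 TPM in ATF1-KO, had the largest other difference, 0.65 (95% interval 0.14 to 1.16, limma adjusted p 0.608). Atf2, which also binds cAMP response elements, differed by -0.07, and Atf4, the stress-response factor, by 0.01.

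Among 8 coactivators and salt-inducible kinases, Crtc3 alone separated the groups, beside 1.30% of all genes tested. CRTC proteins are CREB coactivators that salt-inducible kinases hold in the cytoplasm. Crtc3 was low, at 2.76 to 3.38 TPM in the control clones and 3.52 to 4.97 TPM in ATF1-KO, a log2 difference of 0.36 (95% interval 0.10 to 0.62, limma adjusted p 0.608). Control clones 9 to 11, at 3.79 to 4.76 TPM, overlapped ATF1-KO. Crebbp, the histone acetyltransferase that binds phosphorylated CREB, was at 24.88 to 34.23 TPM in the control clones. It was at 15.17 and 17.88 TPM in ATF1-KO 1 and 2 and at 24.52 to 29.26 TPM in the other 3. Crebbp lies on chromosome 16, whose median deviation was -0.27 and -0.26 in those same libraries. With each chromosome centred per library the Crebbp difference went from -0.36 to -0.21.

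The receptor and kinase arm of the pathway showed no called gene. Of 20 tested genes from the V2 receptor to protein kinase A and phosphodiesterases, 11 were higher and 9 lower by their means, the median was 0.02, and no group separated. Avpr2, the V2 receptor, was at 121 to 227 TPM in the control clones and 136 to 220 TPM in ATF1-KO, a log2 difference of -0.07 (95% interval -0.46 to 0.32). Prkaca, the catalytic alpha subunit of protein kinase A, was at 119.60 to 174.28 TPM in the control clones and 160.58 to 182.62 TPM in ATF1-KO, a difference of 0.22 (95% interval 0.0076 to 0.44) that was not called. Pde7a, a cAMP phosphodiesterase, was the most different by size, at -0.60 (95% interval -1.34 to 0.14). Its ATF1-KO 1 library was lowest, at 37.15 TPM, while the other 4 lay at 84.77 to 120.59 TPM.

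Transcripts listed as cAMP-responsive leaned slightly upwards. Of 23 tested, 15 had higher and 8 lower means, with a median of 0.06, and none was called or separated the groups. Areg, the EGF receptor ligand amphiregulin, was at 1.71 to 5.87 TPM in the control clones and 5.09 to 8.77 TPM in ATF1-KO (difference 0.85, 95% interval 0.25 to 1.45, limma adjusted p 0.599). Ppargc1a, a coactivator of mitochondrial genes, was at 0.94 to 3.26 TPM in ATF1-KO. In the control clones it was at 0.73 to 5.78 TPM apart from clone 3, at 27.67 TPM, and its difference of -1.07 became -0.50 without that clone. Without control clones 1 and 3 the list had 11 members higher and 12 lower, with a median of -0.01.

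Across all genes, limma called none of the 13318 changed at an adjusted p under 0.05 (0% of genes), and the smallest adjusted p was 0.514. At an unadjusted p under 0.05 there were 1014 genes (7.61%), 462 higher and 552 lower. Tmem213 had the smallest unadjusted p, 7.27e-05. The middle of the distribution was narrow: 5% of genes lay below -0.42 and 5% above 0.33. Differences beyond 1 in either direction were found in 227 genes, and 16 of these separated the groups, beside 173 of all 13318 genes tested (1.30%). Without control clone 4, 1 gene was called: Slc25a48 at -1.40 (limma adjusted p 0.0455). No call was made with any other library left out. A p that misses the threshold does not show that genes were equal, so intervals are given beside most genes named.

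All 5 ATF1-KO libraries lay above all 5 control clones for 75 genes (0.563%) and below them for 98 (0.736%), together 173 (1.30%). Their median difference was 0.29 among the higher and -0.41 among the lower genes. Of these, 54 higher and 64 lower genes had a mean of at least 10 TPM. With pseudogenes and unnamed genes left out, the 10 with the largest difference in each direction are described next. Non-overlap is a description and carries no test.

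**Figure D2:**
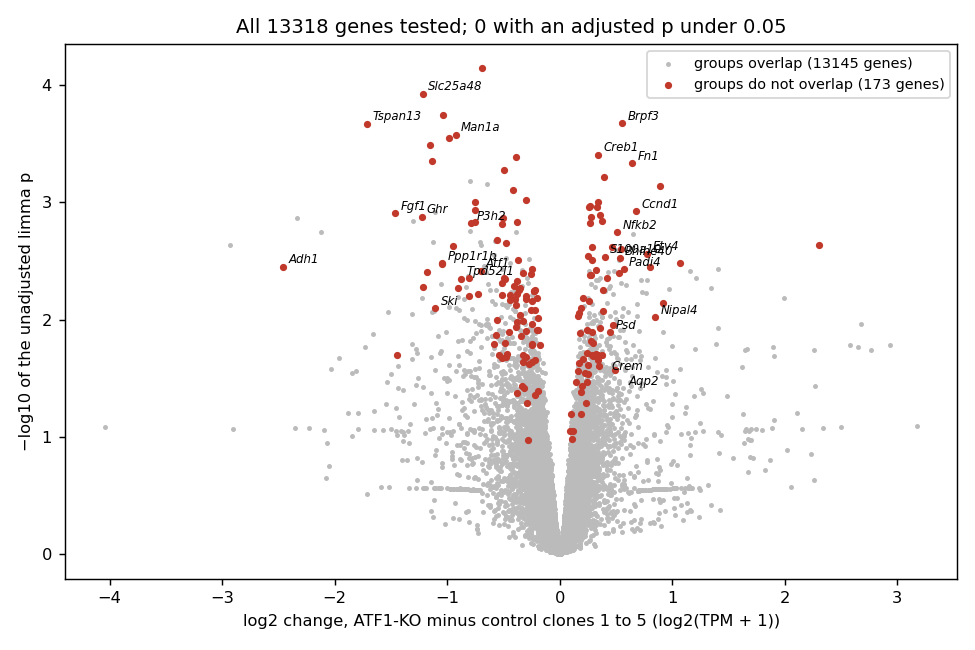
Each point is 1 of 13318 genes tested: the x axis is the log2 difference of ATF1-KO minus control clones 1 to 5, and the y axis is -log10 of the unadjusted limma p. Red points are the 173 genes whose groups do not overlap, and many of the points with larger differences are grey, since their groups overlap.

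Genes of metabolism and growth factor signalling were among the lower 10. Adh1, an alcohol dehydrogenase that also oxidizes retinol, was at 287.55, 32.44, 420.02, 92.63 and 41.53 TPM in control clones 1 to 5. Values of 14.83, 21.10, 30.71, 26.52 and 9.53 TPM were found in ATF1-KO libraries 1 to 5. Control clones 1 and 3 were far above the rest, and clone 2 was barely above ATF1-KO 3. The log2 difference was -2.46 (95% interval -3.93 to -0.99, limma adjusted p 0.555), and -1.35 without control clones 1 and 3.

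Slc25a48, a carrier of the inner mitochondrial membrane, was at 91.73, 53.42, 60.27, 33.93 and 63.04 TPM in control clones 1 to 5. In ATF1-KO libraries 1 to 5 it was at 26.24, 23.23, 26.55, 26.04 and 19.84 TPM. The ATF1-KO values were tightly grouped, and the nearest control was clone 4. The difference was -1.22 (SE 0.21, 95% interval -1.68 to -0.75, limma adjusted p 0.514). Control clones 9 to 11 had 17.27 to 27.28 TPM and overlapped the ATF1-KO range.

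Tspan13, a tetraspanin membrane protein, was at 14.52 to 23.68 TPM in the control clones. In ATF1-KO libraries 1 to 5 it was at 1.94, 4.96, 2.82, 7.10 and 9.56 TPM, a difference of -1.71 (95% interval -2.41 to -1.01, limma adjusted p 0.514). Control clones 9 to 11 were as low as ATF1-KO, at 1.70 to 4.77 TPM.

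Fgf1, acidic fibroblast growth factor, was at 26.10 to 63.11 TPM in the control clones and 7.78 to 24.77 TPM in ATF1-KO (-1.46, 95% interval -2.21 to -0.72). Ghr, the growth hormone receptor, was at 42.06 to 86.80 TPM and 13.93 to 37.62 TPM (-1.23, 95% interval -1.86 to -0.59). Both were also lower in ATF1-KO than in each of control clones 9 to 11, which had 45.35 to 45.75 TPM of Fgf1 and 82.95 to 87.67 TPM of Ghr. Control clones 6 to 8 had 12.38 to 14.24 TPM of Fgf1 and 18.59 to 25.57 TPM of Ghr, within the ATF1-KO ranges.

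Ski, a corepressor that restrains SMAD signalling downstream of TGF-beta, split the ATF1-KO libraries. It was at 32.00, 37.80, 42.45, 42.40 and 38.33 TPM in control clones 1 to 5. ATF1-KO libraries 1 to 5 had 7.45, 9.88, 31.72, 24.41 and 25.99 TPM. ATF1-KO 1 and 2 were lowest by a wide margin, while ATF1-KO 3 was just below control clone 1. The difference was -1.10 (95% interval -1.86 to -0.35, limma adjusted p 0.588).

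Ppp1r1b encodes DARPP-32, which inhibits protein phosphatase 1 once protein kinase A has phosphorylated it. It was at 25.71 to 55.41 TPM in the control clones and 9.33 to 24.68 TPM in ATF1-KO (-1.05, 95% interval -1.66 to -0.43). Man1a, a mannosidase that trims N-glycans, was at 22.61 to 46.34 TPM and 12.39 to 18.56 TPM (-0.92, 95% interval -1.31 to -0.54). Tpd52l1, of the tumor protein D52 family, was at 71.04 to 153.39 TPM and 30.10 to 68.70 TPM (-0.87, 95% interval -1.42 to -0.33). P3h2, which hydroxylates prolines of collagen, was at 64.21 to 97.75 TPM and 29.03 to 58.47 TPM (-0.79, 95% interval -1.20 to -0.37). P3h2 lies on chromosome 16, and with chromosomes centred its difference was -0.65.

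Among the 10 higher genes were regulators of transcription, the cell cycle and the matrix. Fn1, fibronectin, was at 89.39, 131.67, 88.76, 112.24 and 131.21 TPM in control clones 1 to 5. Values of 184.00, 169.83, 140.16, 185.48 and 179.69 TPM were found in ATF1-KO libraries 1 to 5. Only ATF1-KO 3 came near the highest controls, clones 2 and 5. The difference was 0.64 (SE 0.13, 95% interval 0.35 to 0.93, limma adjusted p 0.514), and control clones 9 to 11, at 93.40 to 104.13 TPM, lay within the range of control clones 1 to 5.

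Etv4, an ETS factor induced by receptor tyrosine kinase signalling, was at 5.94 to 13.88 TPM in the control clones and 13.98 to 18.66 TPM in ATF1-KO (0.78, 95% interval 0.33 to 1.22). Ccnd1, cyclin D1, was at 7.39 to 13.66 TPM and 15.00 to 21.57 TPM (0.68, 95% interval 0.33 to 1.02). Control clones 9 to 11 had 17.43 to 23.99 TPM of Ccnd1, which overlapped ATF1-KO, and 8.88 to 10.56 TPM of Etv4, which did not.

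Nipal4, a membrane protein mutated in congenital ichthyosis, was at 6.45 to 23.02 TPM in the control clones and 24.35 to 33.23 TPM in ATF1-KO (0.84, 95% interval 0.25 to 1.44). Bhlhe40, a repressor of the circadian system, was at 32.76 to 49.93 TPM and 50.85 to 76.20 TPM (0.53, 95% interval 0.22 to 0.84). Nfkb2, a subunit of the noncanonical NF-kappaB pathway, was at 57.34 to 85.97 TPM and 86.93 to 120.63 TPM (0.51, 95% interval 0.23 to 0.78). In all 3 the lowest ATF1-KO library exceeded the highest control by a small margin.

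Padi4, which converts arginine in proteins to citrulline, was at 32.40 to 55.94 TPM in the control clones and 56.19 to 86.10 TPM in ATF1-KO (0.57, 95% interval 0.23 to 0.91). Brpf3, a scaffold of histone acetyltransferase complexes, was at 11.97 to 15.59 TPM and 17.53 to 23.56 TPM (0.55, 95% interval 0.33 to 0.78). Psd, an exchange factor for ARF6, was at 9.74 to 12.57 TPM and 12.65 to 21.83 TPM (0.45, 95% interval 0.12 to 0.78). S100a10, the annexin A2 partner, was the most abundant of the 10, at 332.09 to 498.57 TPM and 506.64 to 571.24 TPM (0.40, 95% interval 0.17 to 0.63). Its difference was -0.047 against all 11 control clones, where the median of all genes was 0.36. The limma adjusted p-values of the 20 genes in these paragraphs were 0.514 to 0.608, and none was called.

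**Figure D3:**
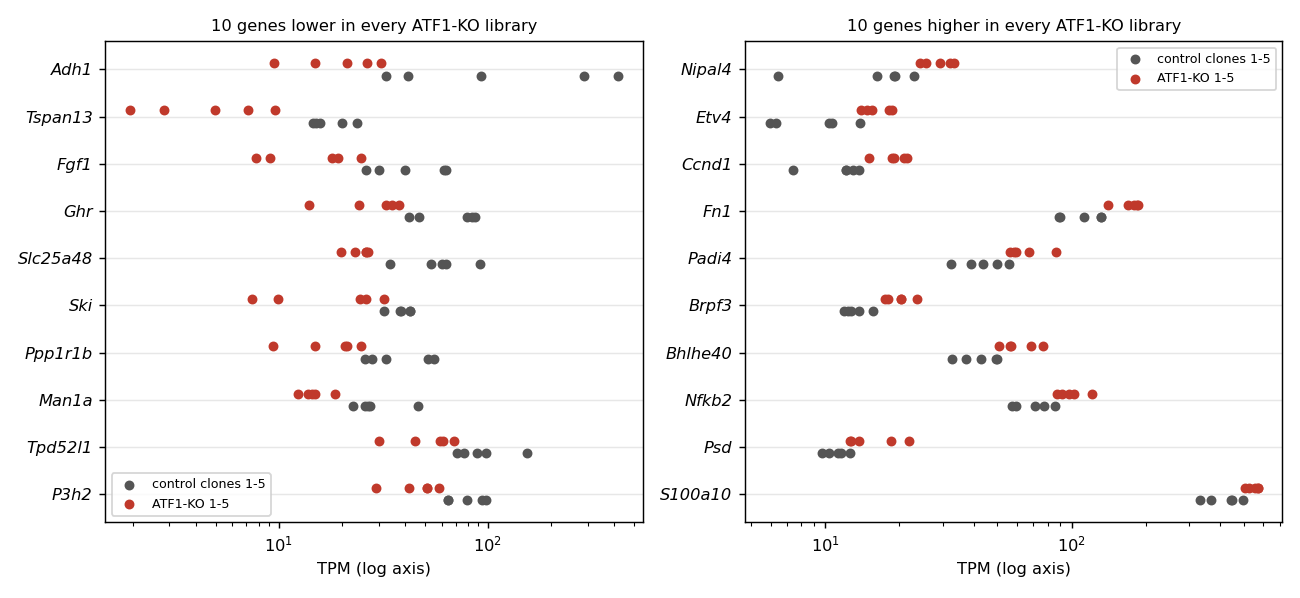
TPM of the 10 lower (left) and 10 higher (right) genes with the largest log2 difference among non-overlapping genes of at least 10 TPM on average. Pseudogenes and unnamed genes are left out, the axis is logarithmic and each point is 1 library. Gaps between the groups are narrow for most genes, and Adh1 has 2 control clones, at 287.55 and 420.02 TPM, far above the other 3.

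Of the 20 genes with Aqp2, Atf1 and Creb1 added, 15 had a promoter in the RefSeq table outside chromosome 18. Promoters on chromosome 18, where Fgf1 lies, were left out of this count. Of the 15, 5 held a core: Aqp2, Atf1, Nipal4, Man1a and Nfkb2. The palindrome TGACGTCA, searched on both strands in the 250 bases before each start, was found in a promoter of 2 of 54 higher non-overlapping genes (3.70%), 1 of 78 lower ones (1.28%) and 299 of 9522 genes tested (3.14%). The core, which every palindrome contains, was found in 15 of 54 (27.8%), 19 of 78 (24.4%) and 3009 of 9522 (31.6%). Among all 32851 promoters of the table these shares were 1.55% and 17.8%. Those count single promoters, whereas the shares above count genes with a match in any of their promoters, so the 2 kinds are not alike. The non-overlapping genes thus held these letters at shares near or below those of the genes tested. No match says only that the letters are not in this window.

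Several principal cell transcripts were abundant in both groups, while 4 of 26 listed, Kcnj1, Tfap2b, Elf5 and Scnn1b, were too low to be tested, at no more than 1.51 TPM in any library. Aqp4 reached at most 3.47 TPM and Nr3c2, the mineralocorticoid receptor, 2.72 TPM. Of the 22 tested 8 had higher and 14 lower means, with a median of -0.09, and none was called. Keratin 18, Krt18, was the only one to separate the groups, beside 1.30% of all genes tested. It was at 4578 to 5340 TPM in the control clones and 3038 to 4404 TPM in ATF1-KO, with ATF1-KO 1 and 2 the lowest, at a difference of -0.36 (95% interval -0.61 to -0.11, limma adjusted p 0.598). Against all 11 control clones, where the median of all genes was 0.36, its difference was 0.17. Its partner Krt8 was at 1433 to 1869 TPM and 1036 to 1532 TPM (-0.28, 95% interval -0.54 to -0.02). The epithelial markers Cdh1 and Cdh16 differed by 0.05 each.

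Hsd11b2, which protects the mineralocorticoid receptor from glucocorticoids, varied widely. It was at 11.65, 60.42, 21.22, 92.15 and 69.91 TPM in control clones 1 to 5. In ATF1-KO libraries 1 to 5 it was at 265.56, 143.36, 75.61, 32.16 and 198.98 TPM. ATF1-KO 1, 2 and 5 lay above all controls, and ATF1-KO 3 and 4 lay within the control range. The difference of 1.48 (95% interval 0.04 to 2.93, limma adjusted p 0.653) was 0.63 without control clones 1 and 3. Hsd11b2 lies on chromosome 8, whose median was -0.24 and -0.19 in those clones.

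The sodium transport and aldosterone genes held 1 separated member, beside 1.30% of all genes tested. Of 19 tested, 8 had higher and 11 lower means, with a median of -0.04, and without control clones 1 and 3 there were 11 higher and 8 lower, with a median of 0.03. Atp1b1, the beta subunit of the sodium pump, was at 737.78, 728.96, 724.83, 748.66 and 650.99 TPM in control clones 1 to 5. ATF1-KO libraries 1 to 5 had 498.28, 493.17, 598.62, 614.15 and 546.04 TPM. All 5 were below control clone 5, itself below the other controls. The difference was -0.39 (SE 0.08, 95% interval -0.56 to -0.22, limma adjusted p 0.514), and control clones 9 to 11 were higher again, at 928 to 1082 TPM.

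Sgk1, a kinase induced by corticosteroids that activates the epithelial sodium channel, was at 828.95 and 833.59 TPM in control clones 1 and 3. It was at 36.34 to 126.85 TPM in the other 3 control clones and at 32.57 to 120.37 TPM in ATF1-KO. Its difference of -1.39 (95% interval -3.14 to 0.36) was -0.05 without clones 1 and 3. Scnn1a, the alpha subunit of that channel, was at 102.69 to 233.28 TPM in the control clones and 89.93 to 161.87 TPM in ATF1-KO (-0.36, 95% interval -0.91 to 0.19).

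Of 16 tested transcription factors of the collecting duct 5 had higher and 11 lower means, with a median of -0.06 and no separated member. Gata2, a factor known to act on Aqp2, was at 1.27 to 12.07 TPM in the control clones. It was at 10.97 to 21.22 TPM in 4 ATF1-KO libraries and 1.32 TPM in ATF1-KO 4 (1.16, 95% interval -0.27 to 2.60). Gata3, more abundant, differed by -0.02. Klf5, at -0.20, and Hoxb7, at -0.13, had an unadjusted p under 0.05, beside 7.61% of all genes tested, but were not called.

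Of 25 tested genes of aquaporin-2 trafficking 12 had higher and 13 lower means, with a median of -0.02. Stx7, a syntaxin of endosomes, was the only one to separate the groups, beside 1.30% of all genes tested. Its level was 191.21 to 269.97 TPM in the control clones and 161.25 to 181.62 TPM in ATF1-KO (-0.38, 95% interval -0.58 to -0.18, limma adjusted p 0.514). It was at 272.52 to 284.84 TPM in control clones 9 to 11 and 48.33 to 54.61 TPM in control clones 6 to 8. Against all 11 control clones its difference was 0.12, beside the median of 0.36 over all genes. Myo5b, the motor of recycling endosomes, was at 14.06 to 24.97 TPM and 11.31 to 15.45 TPM (-0.42, 95% interval -0.74 to -0.10).

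In several lists with more higher than lower means, control clone 1 or 3 was the lowest library. Of 20 immediate early and MAP kinase feedback genes 15 had higher means in ATF1-KO, with a median of 0.25, and none was called. The mean deviation of the list was -0.39 in each of control clones 1 and 3, -0.03 to 0.13 in the other 3 and 0.0046 to 0.19 in ATF1-KO. Without those clones 13 were higher and the median was 0.03. Fosl1, an AP-1 factor, was at 5.28 to 14.61 TPM in the control clones and 13.89 to 18.95 TPM in ATF1-KO (0.77, 95% interval 0.29 to 1.25). Ier3 was at 32.15 to 90.37 TPM and 76.62 to 139.91 TPM (0.62, 95% interval 0.05 to 1.20).

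Of 22 cholesterol and fatty acid synthesis genes 21 had higher means in ATF1-KO, with a median of 0.20. None was called, and none separated the groups. Unadjusted limma p-values under 0.05 were found for 5 of them, Dhcr7, Mvd, Fdps, Srebf2 and Scd1, beside 7.61% of all genes tested. Fdps, which makes farnesyl diphosphate, was at 326.34, 329.33, 274.08, 422.86 and 395.84 TPM in control clones 1 to 5. Values of 369.42, 384.97, 423.39, 470.74 and 563.10 TPM were found in ATF1-KO libraries 1 to 5. The groups overlapped, with a difference of 0.34 (95% interval 0.03 to 0.65). The mean deviation of the list was -0.37 and -0.20 in control clones 1 and 3, between -0.05 and 0.07 in the other 3, and between -0.0063 and 0.22 in ATF1-KO. Without those 2 clones 17 were higher and the median was 0.08.

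DNA replication and mitosis genes had 19 of 24 higher means, with a median of 0.11. Cyclin A2, Ccna2, was at 166.46 to 229.92 TPM in the control clones and 197.48 to 279.44 TPM in ATF1-KO (0.27, 95% interval 0.02 to 0.52), and the groups overlapped. Control clone 1 had the lowest list deviation, -0.32. Without clones 1 and 3 there were 15 higher and a median of 0.03.

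For p53 targets 14 of 17 had higher means, with a median of 0.14. Sesn1, a stress-induced inhibitor of mTORC1, went against the list and alone separated the groups, beside 1.30% of all genes tested. Its level was 34.50 to 54.24 TPM in the control clones and 23.11 to 34.04 TPM in ATF1-KO (-0.51, 95% interval -0.85 to -0.18, limma adjusted p 0.562). Against all 11 control clones its difference was 0.093, beside the median of 0.36 over all genes. Control clone 3 had the lowest list deviation, -0.51, and without clones 1 and 3 the count was 8 higher and 9 lower, with a median of -0.03.

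Endoplasmic reticulum stress and ATF4 genes had 16 of 22 higher means, with a median of 0.05, and 17 without control clones 1 and 3. Calr, the chaperone calreticulin, alone separated the groups, beside 1.30% of all genes tested. Its level was 682.47 to 757.37 TPM in the control clones and 761.38 to 897.68 TPM in ATF1-KO (0.18, 95% interval 0.05 to 0.32, limma adjusted p 0.608). Calr lies on chromosome 8, and with chromosomes centred its difference was 0.08. Ddit3, the factor CHOP, was at 134.25 TPM in control clone 3 and 53.46 to 79.46 TPM in the other 9 libraries.

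Interferon-response genes had 9 higher and 13 lower means of 22, with a median of -0.06, and 3 higher and 19 lower without control clones 1 and 3, with a median of -0.17. Ifit3 was at 6.71 to 22.50 TPM in the control clones and 1.31, 2.54, 10.34, 14.10 and 4.39 TPM in ATF1-KO libraries 1 to 5 (-1.10, 95% interval -2.21 to 0.01). ATF1-KO 1 had the lowest list deviation of all libraries, -0.51.

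Of 18 genes of epithelial and mesenchymal state 10 had higher and 8 lower means, and 3 separated the groups, beside 1.30% of all genes tested. These were Fn1 and Krt18, given above, and Tjp1, the tight junction scaffold ZO-1, at 45.22 to 50.49 TPM in the control clones and 53.32 to 59.59 TPM in ATF1-KO (0.19, 95% interval 0.06 to 0.32). Cldn8, a tight junction claudin of the collecting duct, was at 568.60 and 576.71 TPM in control clones 1 and 3 and 67.35 to 261.38 TPM in the others. In ATF1-KO it was at 15.66 to 179.65 TPM. Its difference of -1.85 (95% interval -3.47 to -0.23) was -0.95 without those 2 clones.

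Clock and osmotic genes showed little. Of 16 clock genes 6 had higher and 10 lower means, and Bhlhe40 was the only separated member, beside 1.30% of all genes tested. The median was -0.04, and without control clones 1 and 3 the count was 10 higher and 6 lower, with a median of 0.096. Per2, a core clock gene, was at 33.15 to 40.75 TPM in the control clones and 25.62 to 39.06 TPM in ATF1-KO (-0.21, 95% interval -0.47 to 0.06). Of 8 osmotic response genes 2 had higher and 6 lower means, with a median of -0.08.

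**Figure D4:**
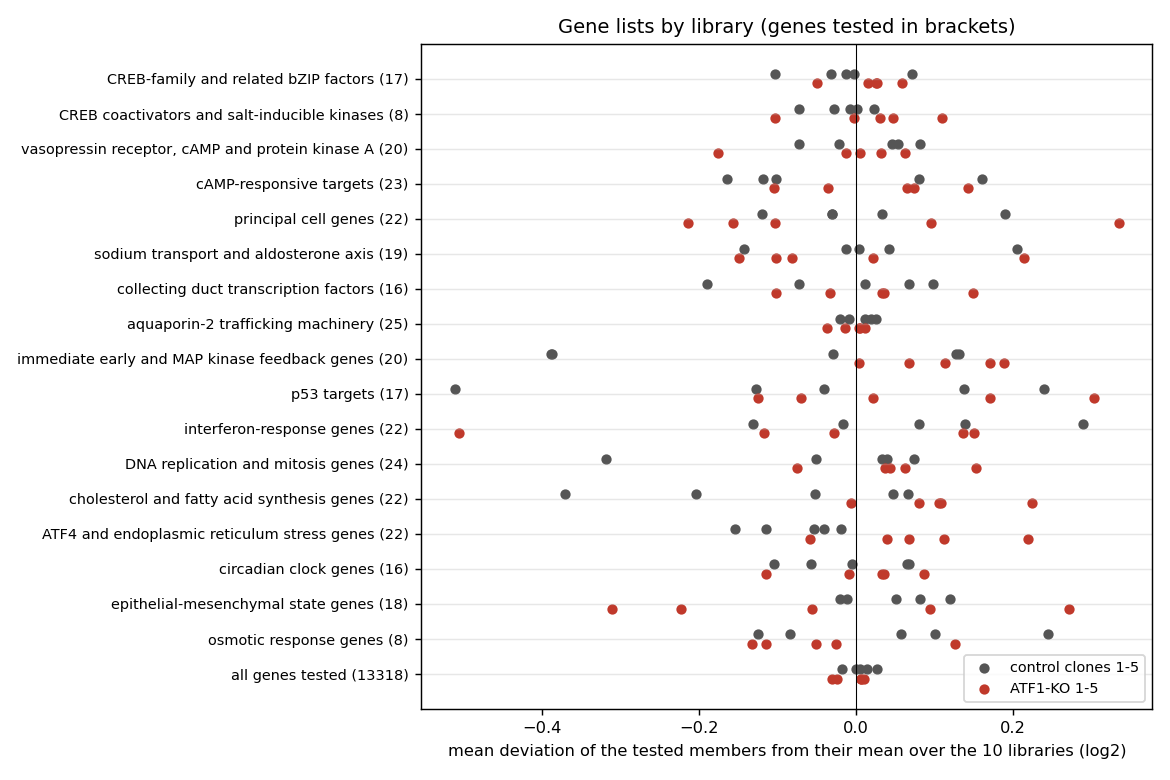
Mean log2 deviation of the tested members of each gene list from their own mean over the 10 libraries, 1 point for each library. Control clones and ATF1-KO overlap in every list. The lowest points of the immediate early, p53 and cholesterol lists belong to control clones 1 and 3. In the mitosis list control clone 1 is lowest, while control clone 3 lies at 0.07.

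Most markers of other cell types were at or near 0, with a few exceptions. Of 12 intercalated cell markers, 3 were at 0 in all 10 libraries, among them Foxi1, and the summed level was 28.2 to 151 TPM in the control clones and 21.5 to 46.5 TPM in ATF1-KO. The top of that range came from Rhcg, at 108.11 TPM in control clone 2 and 0.11 to 8.88 TPM in the other 9 libraries. Summed fibroblast markers reached at most 0.70 TPM and endothelial markers 0.52 TPM, with Col3a1 and Cdh5 at 0 in every library. Leukocyte markers summed to at most 42.3 TPM, from Csf1r and Cd68, while Ptprc stayed at or below 0.43 TPM and Adgre1 was at 0. Podocyte markers summed to 21.1 to 47.2 TPM in the control clones and 29.9 to 48.5 TPM in ATF1-KO, nearly all from Podxl, with Nphs1 and Wt1 at 0. Proximal tubule markers summed to 4.97 to 21.2 TPM and 1.96 to 11.6 TPM, mostly from Lrp2, with Slc22a6 at 0. Markers of the thick ascending limb and distal convoluted tubule summed to at most 2.59 TPM. In bulk libraries fewer cells of a type and less RNA per cell cannot be told apart.

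Several chromosomes moved as blocks in single libraries. The median deviation of the genes on a chromosome reached 0.32 for chromosome 17 in ATF1-KO 1, -0.27 and -0.26 for chromosome 16 in ATF1-KO 1 and 2, and 0.17 for chromosome 19 in ATF1-KO 3. In control clones 1 and 3 it was -0.27 and -0.23 for chromosome 14. Genes named above on chromosomes 3, 5, 8, 10, 12, 14, 15, 16, 17 or 19 lie on chromosomes with such medians, and their part in the differences was not tested beyond the centred values. Chromosome 10, which holds Man1a, Tpd52l1, Stx7 and Sesn1, had medians of -0.19 to 0.22 in the control clones and -0.15 to 0.14 in ATF1-KO. Centred values of these genes are not given here. With each chromosome centred per library, limma again called 0 genes, and 208 genes separated the groups.

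**Figure D5:**
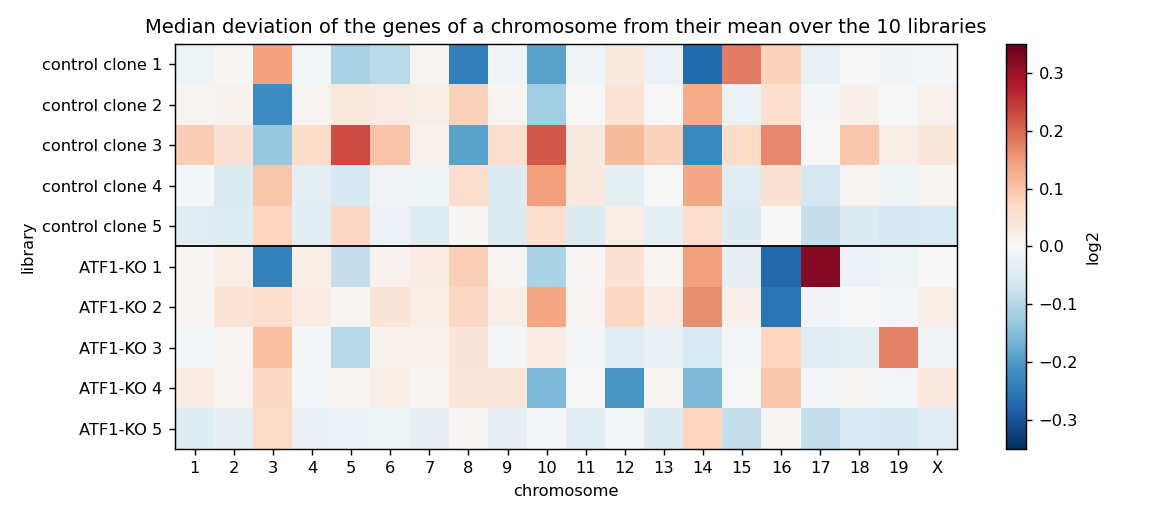
Median log2 deviation of the tested genes of each chromosome (x axis) from their mean over the 10 libraries, in each library (y axis); red is higher and blue lower. The darkest cell is chromosome 17 in ATF1-KO 1, at 0.32, and chromosome 16 is lower in ATF1-KO 1 and 2.

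Other libraries gave further controls and knockouts for the 173 separated genes. All 5 ATF1-KO libraries lay above control clones 9 to 11 for 1710 genes (12.8%) and below them for 1646 (12.4%). Among the separated genes this held for 44 of the 75 higher and 62 of the 98 lower, in the same ATF1-KO libraries that defined the separation. Nipal4, Etv4, Fn1, Brpf3, Bhlhe40, Nfkb2, Psd and S100a10 of the higher 10 were among the former. Adh1, Fgf1, Ghr, Ski, Ppp1r1b, Tpd52l1 and P3h2 of the lower 10 were among the latter. Control clones 6 to 8 were not part of these counts. Of the lower genes just named, only Adh1 was also below each of those clones in all 5 ATF1-KO libraries. Of the higher ones, all but S100a10 were also above each of them. The share of all genes tested lying above or below clones 6 to 8 was not counted, so these positions have no background beside them. Against all 11 control clones 57 of 13311 genes separated, 42 of them higher, and the median of all genes was 0.36. The libraries labelled ATF1/CREB1-KO, which also carry a CREB1 knockout, were compared with control clones 6 to 8. Of the 75 higher separated genes, 39 (52%) were higher there too, beside 47.1% of all genes. Of the 98 lower ones, 50 (51.0%) were lower there too, beside 51.8% of all genes. Whether these shares differ was not tested.

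The libraries labelled ATF1/CREB1/CREM-KO, which carry 2 further knockouts and share no library with this comparison, were set against control clones 9 to 11 with limma. Of genes tested in both comparisons, 495 of 12830 were called higher there (3.86%) and 696 lower (5.42%). Among the separated genes, 10 of 75 higher ones were called higher there and 8 of 93 lower ones called lower, while 2 and 2 were called in the opposite direction. By sign alone, called or not, 56% of the higher separated genes were higher there, beside 43.2% of all genes. For the lower ones 64.3% were lower there, beside 55.6% of all genes, and these shares were not tested either. S100a10 was higher there (0.82, limma adjusted p 0.00689) and Stx7 lower (-0.64, adjusted p 0.00920). Tspan13 went the other way, with 2.91 (adjusted p 0.00815). Creb1, itself targeted in those cells, was at -0.97 (adjusted p 0.00305).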

How the data were processed

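Gene expression was measured by RNA sequencing. Total RNA was reverse transcribed and amplified by PCR (SMARTer), and libraries were tagmented (Nextera XT) and read from both ends, per the labels' protocols. STAR and RSEM are named in the submitters' processing notes, without versions; the genome build and annotation are not given in the sources used here. The values deposited by the authors are TPM for 55414 genes, which add to 1 fixed total in every column, so depth is unknown. The table has no counts, so the test planned for counts was not used.

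Columns were matched to samples by title. log2(TPM + 1) was fitted for 13318 genes averaging 1 TPM or more with limma 3.58.1 in R 4.3.3 (lmFit, eBayes with trend) over the 10 libraries, with no covariate and an adjusted p threshold of 0.05. Atf1, Creb1, Crem and Aqp2 were also compared by exact two-sided permutation tests, adjusted over 4. Genes named were these 4, the 10 non-overlapping genes per direction with the largest difference and a mean of at least 10 TPM, and members of gene lists that separated the groups or differed most. Pseudogenes and unnamed genes were left out of the 10 per direction. Other list members and Tmem213 were named after their values were seen. The members and lists were chosen with earlier results of these data known. GENCODE M21 (GRCm38) supplied chromosomes and gene order, and RefSeq (GRCm38.p6) the promoters. Other pseudocounts, filters, scalings, weights and control sets, chromosome centring and leaving out each library were tried. Figures were drawn with matplotlib 3.10.9.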

Additional observations from a re-analysis of the deposited data

Results flagged for a closer look

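In 7 of 132 groups of 5 libraries, covering 66 named genes, 1 library lay far from the other 4; chance alone flags about 1 group in 20. Control clone 3 was far above the other control clones for 3 genes: Man1a at 46.34 TPM (22.61 to 27.33 in the others), Ppargc1a at 27.67 TPM (0.73 to 5.78) and Ddit3 at 134.25 TPM (60.62 to 79.46). Control clone 4 was low for Ccnd1, at 7.39 TPM (12.13 to 13.66 in the others). Control clone 5 was low for Atp1b1, at 650.99 TPM (724.83 to 748.66). Control clone 2 was high for Rhcg, at 108.11 TPM (0.11 to 5.45). In ATF1-KO, replicate 1 was high for Scd1, at 26.84 TPM (15.43 to 18.56).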

How the results depend on the processing

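limma called 0 genes under every alternative run except without control clone 4, where 1 was called (Slc25a48, -1.40, adjusted p 0.0455); over the fits that each left out 1 library the count was 0 to 1. The replicate numbers did not pair the samples: correlations of same-numbered deviations were -0.10 to 0.08, and 2 of 5 control clones correlated best with the ATF1-KO library of their own number. With the number as a replicate block 0 genes were called, with 927 at an unadjusted p under 0.05. Non-overlapping genes, 173 in all, numbered 57 against all 11 control clones, 529 without control clones 1 and 3, and 256 to 424 with 1 library left out, where fewer libraries make separation easier. Without control clones 1, 2, 3, 4 and 5 in turn they numbered 278, 338, 302, 322 and 424, and without ATF1-KO 1, 2, 3 and 4 they numbered 270, 264, 338 and 328. In the permutation tests Atf1 no longer passed against all 11 control clones (-0.48, adjusted p 0.0614), nor without control clones 1, 3, 4 or 5 (-0.72 to -0.65 for these). Creb1 no longer passed against all 11 (0.88, adjusted p 0.0614), and Crem passed without control clone 2 (0.53). With 1 library left out, the differences ran from -0.84 to -0.57 for Atf1 and from 0.33 to 0.53 for Crem. Using all 11 control clones moved the median of all genes to 0.36, and beside that shift the sign of the difference was reversed for S100a10 (-0.047), Pde7a (0.056), Krt18 (0.17), Tfap2a (-0.28), Stx7 (0.12), Sesn1 (0.093), Per2 (0.20), Slc6a6 (0.22) and Cd68 (0.18). Elsewhere signs reversed for Rhcg with a pseudocount of 0.1 (0.18), without control clone 2 (0.94) and without ATF1-KO 4 (0.25), for Egf with library weights (0.019) and without ATF1-KO 1 (0.028), and for Cd68 without control clone 1 (0.09), ATF1-KO 2 (0.14) and ATF1-KO 5 (0.0012). With 1 library left out, these 3 ran from -0.71 to 0.94, -0.18 to 0.028 and -0.21 to 0.14. The other 1339 values of named genes kept their direction and their side of the threshold. The cause of these shifts was not tested. Chromosome centring and leaving out clones 1 and 3 together were chosen after seeing the data. Without counts, precision at low TPM cannot be judged.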
